A study of Mus musculus with 26 samples.

Results

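The miR-15/16 seed family of microRNAs, which includes miR-195a and miR-497a, was followed through small RNA sequencing of the mouse hippocampus. Its members were chosen by sequence and by name, as rows of the deposited count table that carry the miR-15/16 seed, together with mmu-miR-15b-3p, the opposite arm of the miR-15b hairpin. The choice was made with earlier results of these data known. That gave 7 of the 1915 entries of the count table, 6 with the seed and 1 without, and all 7 were among the 605 miRNAs with enough counts to be tested. The tissue was the CA1 region, dissected from mice aged 3 months after 4 weeks of treatment in the drinking water.

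The 26 libraries formed 3 groups. There were 10 libraries of transgenic mice given Vorinostat, an inhibitor of histone deacetylases, 7 of transgenic mice given vehicle and 9 of wild type littermates given vehicle. The transgenic line is named CamkdeltaC in the series text, and the series links heart failure to memory impairment. The labels do not state the promoter that drives the transgene, the sex of each animal or whether each library is 1 animal. The p-values thus rest on the spread between libraries, which may be technical. Treatment began at 2 months of age, and both sexes were included.

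A microRNA is a short RNA cut from a hairpin precursor, and it recognises target messages mainly through its seed, the bases 2 to 8 from the 5′ end. miRNAs with the same seed can therefore repress overlapping sets of messages even when they are made from different genes. The miR-15/16 family is best known for holding back the cell cycle, through cyclins and their kinases, and for repressing the survival gene Bcl2. In mice, miR-195 rises in the heart as muscle cells leave the cell cycle after birth, and miR-322 belongs to a cluster on the X chromosome studied in muscle differentiation.

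The mature sequences are shown because the shared seed defines the family and the remaining bases tell its members apart. They are RefSeq sequences on build GRCm38.p6, written 5′ to 3′, with the seed in capitals.
mmu-miR-16-5p: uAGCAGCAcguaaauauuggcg
mmu-miR-195a-5p: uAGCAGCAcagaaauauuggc
mmu-miR-497a-5p: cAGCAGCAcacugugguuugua
mmu-miR-15a-5p: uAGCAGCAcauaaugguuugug
mmu-miR-15b-5p: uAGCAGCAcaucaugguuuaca
mmu-miR-322-5p: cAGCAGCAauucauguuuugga
mmu-miR-15b-3p: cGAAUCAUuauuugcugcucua
The first 6 share the seed AGCAGCA and mmu-miR-15b-3p does not. miR-16-5p and miR-195a-5p were identical at 19 of the 21 positions compared from the 5′ end, the closest pair of the family. miR-15a-5p and miR-15b-5p were identical at 18 of 22 positions, and miR-16-5p and miR-497a-5p at 11 of 22. The labels do not state how many mismatches were allowed when reads were assigned, so the split of reads between miR-16-5p and miR-195a-5p is uncertain. Of 1679 mature names in the RefSeq table, 10 carry the seed. The other 4, miR-195b, miR-6342, miR-6353 and miR-6419, had 20 reads in all 26 libraries together, all of miR-195b, and were not tested.

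The members come from 4 clusters of hairpins. Mir15a (mature 5p arm at chr14:61632075-61632096) and Mir16-1 (chr14:61631936-61631957) lie 81 bp apart on the minus strand, inside the non-coding gene Dleu2, with their mature arms outside its annotated exons. Mir15b (chr3:69009775-69009796) and Mir16-2 (chr3:69009918-69009939) lie 84 bp apart on the plus strand, in introns of Smc4, which encodes a condensin subunit. Mir497 (chr11:70234730-70234751) and Mir195a (chr11:70235062-70235082) lie 272 bp apart on the plus strand. Mir322 (chrX:53054306-53054327) lies 220 bp from Mir503 on the minus strand. No gene other than miRNA genes contained the last pair of clusters in the GENCODE vM21 annotation. miR-16-5p has the same sequence from both of its loci, so its reads cannot be assigned to chromosome 3 or 14.

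Library totals were 3892718 to 15693842 counts with Vorinostat, 6014711 to 24767468 in transgenic vehicle libraries and 585188 to 17628404 in wild type libraries. Levels are CPM, counts on a scale of 1e6 per library, after scaling by trimmed-mean factors. Neuronal miRNAs were abundant in every library, with a summed level of 352427 to 510845 CPM with Vorinostat, 337597 to 425812 CPM in transgenic vehicle libraries and 208325 to 416050 CPM in wild type libraries. A pair of libraries stood apart. Wild type replicate 1, the shallowest with 585188 counts, held 5 reads of the family, against 312 to 21262 in the other 25 libraries. Vorinostat replicate 8, with 3892718 counts, held those 312. The differences of the seed carriers are also given without this pair of libraries. Since whole tissue was sequenced, fewer cells of a type and less RNA per cell cannot be told apart.

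miR-16-5p was the most abundant member in CA1, followed by miR-195a-5p. miR-16-5p ranged over 65.5, 349 and 607 CPM (lowest, median and highest) with Vorinostat, over 172, 381 and 799 CPM in transgenic vehicle libraries and over 4.16, 417 and 633 CPM in wild type libraries. The lowest wild type value rests on 2 reads, and the next lowest wild type library had 168 CPM. All 3 groups overlapped. miR-195a-5p ranged over 26.8, 61.3 and 90.6 CPM with Vorinostat, over 36.5, 69.6 and 111 CPM in transgenic vehicle libraries and over 6.24, 62.5 and 88.4 CPM in wild type libraries. Its ranges overlapped too, and the lowest library was again wild type replicate 1, with 3 reads.

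The remaining members were scarce. miR-497a-5p, cut from the transcript that also holds miR-195a, ranged over 1.91, 11.2 and 18.3 CPM with Vorinostat, over 6.37, 14.2 and 22.2 CPM in transgenic vehicle libraries and over 0, 11.8 and 16.8 CPM in wild type libraries. miR-15a-5p ranged over 1.198, 2.75 and 11.04 CPM with Vorinostat, over 1.18, 6.01 and 23.2 CPM in transgenic vehicle libraries and over 0, 4.13 and 13.1 CPM in wild type libraries. miR-15b-5p ranged over 0.636, 3.03 and 4.75 CPM with Vorinostat, over 1.22, 3.99 and 5.93 CPM in transgenic vehicle libraries and over 0, 2.45 and 5.23 CPM in wild type libraries. The libraries at 0 are all wild type replicate 1, where 3 counts correspond to 6.24 CPM, so a level up to that size cannot be told from 0 there. miR-322-5p ranged over 0.829, 1.46 and 1.83 CPM with Vorinostat, over 0.510, 1.57 and 2.19 CPM in transgenic vehicle libraries and over 0, 0.850 and 2.04 CPM in wild type libraries. miR-15b-3p ranged over 0.276, 0.633 and 1.76 CPM with Vorinostat, over 0.303, 0.686 and 2.11 CPM in transgenic vehicle libraries and over 0, 0.974 and 1.38 CPM in wild type libraries. A single library held at most 57 reads of miR-322-5p and 30 of miR-15b-3p, so counting error is a large part of their spread.

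**Figure D1:**
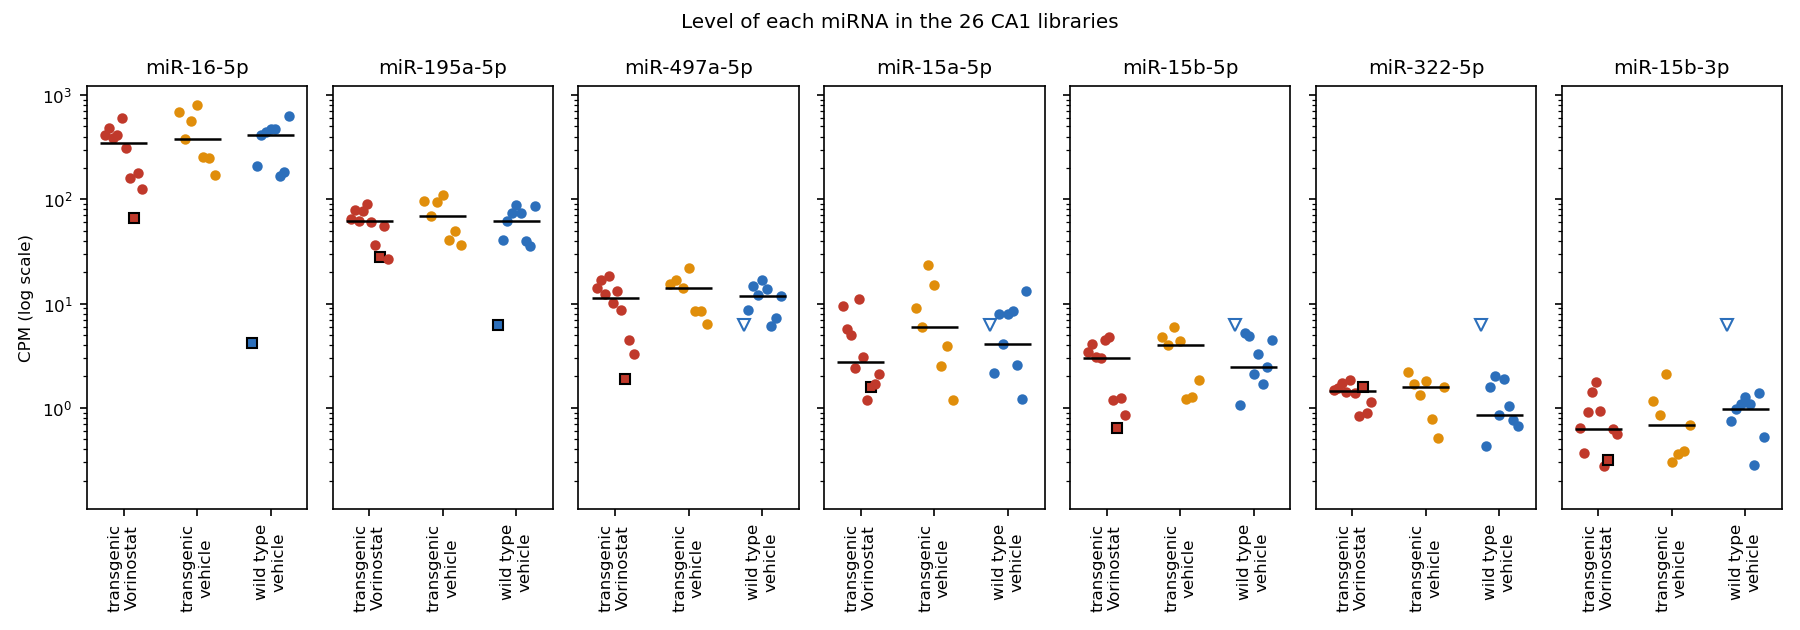
CPM (log scale) of each of the 7 miRNAs, 1 point per library, with transgenic Vorinostat, transgenic vehicle and wild type vehicle libraries from left to right in each panel and the group median as a bar. Squares with a black edge mark Vorinostat replicate 8 and wild type replicate 1, and open triangles mark 0 counts, drawn at the level of 3 counts. The groups overlap in every panel, and wild type replicate 1 lies at 4.16 CPM of miR-16-5p.

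The top of the order held in nearly every library, and the lower steps in fewer. miR-16-5p exceeded miR-195a-5p in 25 of 26 libraries, the exception being wild type replicate 1, and miR-195a-5p exceeded miR-497a-5p in 26 of 26. miR-497a-5p exceeded miR-15a-5p in 22 libraries, miR-15b-5p exceeded miR-322-5p in 23, and miR-322-5p exceeded miR-15b-3p in 20. miR-15a-5p and miR-15b-5p had medians of 4.04 and 3.03 CPM over all libraries, and miR-15a-5p was the higher in 19 libraries. Their difference within libraries was not tested. Mature lengths were 21 or 22 bases, so no length correction was applied. A level of one miRNA against another also depends on how well each is captured in the library, which was not measured here. Of all 605 miRNAs tested, miR-16-5p ranked 102nd by median CPM, miR-195a-5p 197th and miR-15b-3p 578th.

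The summed level of the 6 seed carriers was mostly that of miR-16-5p, which made up 81.7% of the family's counts over all libraries, with 13.6% from miR-195a-5p and 2.49% from miR-497a-5p. The sum averaged 391.8 ± 206 CPM with Vorinostat (SD, n = 10), 542 ± 285 CPM in transgenic vehicle libraries (SD, n = 7) and 411 ± 238 CPM in wild type libraries (SD, n = 9). Without the 2 libraries that stood apart the means were 424 ± 189 CPM with Vorinostat (SD, n = 9) and 461 ± 198 CPM in wild type libraries (SD, n = 8). In each group the spread between libraries was larger than the difference between group means.

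**Figure D2:**
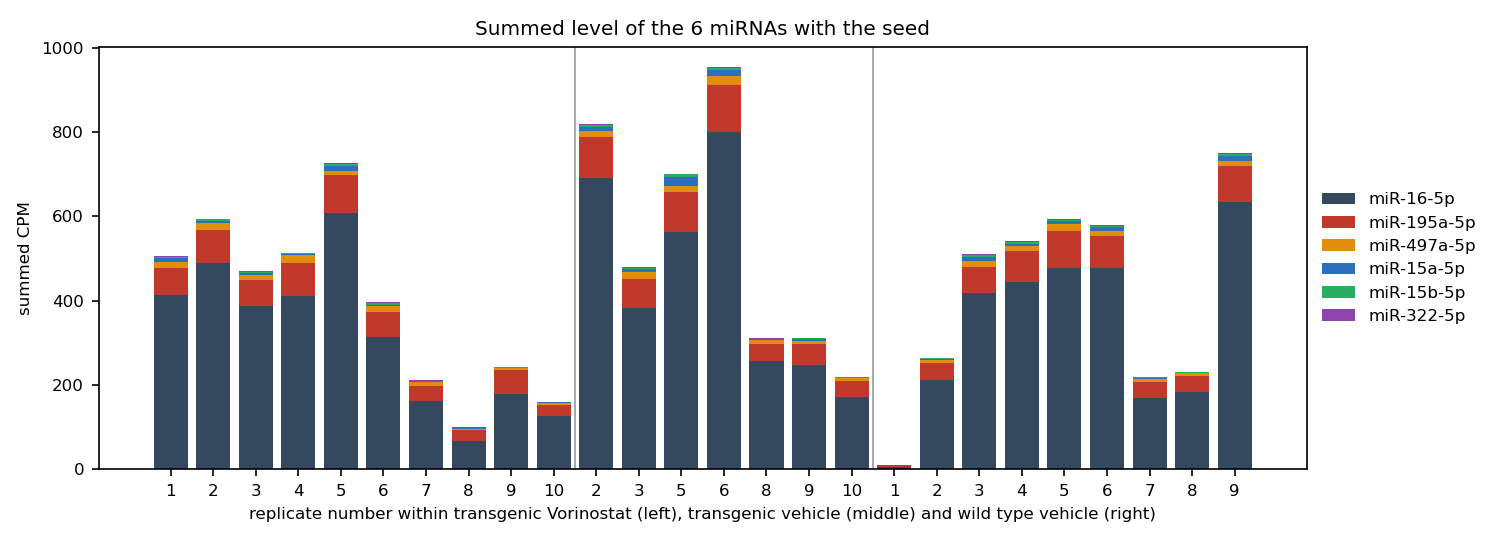
Summed CPM of the 6 miRNAs with the seed in each library, stacked by miRNA, with transgenic Vorinostat libraries on the left, transgenic vehicle in the middle and wild type vehicle on the right. miR-16-5p fills most of every bar except that of wild type replicate 1, and the sums run between 10.4 and 954 CPM.

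The genotype comparison asks whether the family differs with the transgene in the absence of the drug. All 6 seed carriers had a higher fitted level in transgenic vehicle libraries, but none passed the test. The median log2 difference of the 6 was 0.31, against 0.03 over all 605 miRNAs tested. miR-15a-5p averaged 8.74 ± 7.93 CPM in transgenic vehicle libraries and 5.29 ± 4.32 CPM in wild type libraries (SD, n = 7 and 9), a log2 difference of 0.60 ± 0.56 (SE), which was 0.14 without transgenic vehicle replicate 5. miR-16-5p averaged 444 ± 243 CPM in transgenic vehicle libraries and 335 ± 201 CPM in wild type libraries (SD), a log2 difference of 0.40 ± 0.50 (SE), which was 0.20 without transgenic vehicle replicate 6. The differences of the other 4 lay between 0.13 for miR-15b-5p and 0.31 for miR-195a-5p and miR-322-5p. miR-15b-3p had a log2 difference of -0.11 ± 0.42 (SE). The adjusted p was 0.980 for each of the 7 in edgeR's quasi-likelihood test with Benjamini-Hochberg adjustment, and the groups overlapped for each.

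In that comparison 0 of the 7 members passed, as did 0 of all 605 miRNAs (0% called). At an unadjusted p under 0.05 there were 13 miRNAs, and DESeq2 and limma voom also called 0. Without the 2 libraries that stood apart the 6 seed carriers remained positive with a median of 0.19, and miR-16-5p stood at 0.20 ± 0.37 (SE). Within sequencing lane L001, as named in the count columns, the median was 0.54 with 6 of 6 positive. Within lane L002 it was 0.12 with 4 of 6 positive, and miR-15a-5p (-0.06) and miR-15b-5p (-0.45) were negative there. No listed cell type marker passed either. The tested markers had a median of 0.16 for neurons (6 markers), 0.53 for oligodendrocytes (3), -0.01 for microglia and leukocytes (4), 0.00 for erythrocytes (4), 0.13 for vessels (4), 0.19 for choroid plexus (4) and 0.24 for heart and muscle (3). The tested markers were positive in 6 of 6 cases for neurons, 3 of 3 for oligodendrocytes, 4 of 4 for vessels and 3 of 3 for heart and muscle. Leaving out the 2 libraries that stood apart, the counts were 3 of 6, 3 of 3, 3 of 4 and 2 of 3, with medians of 0.01, 0.37, 0.14 and 0.27. For microglia and leukocytes, erythrocytes and choroid plexus 2 of 4 each were positive. Without those libraries it was 1 of 4, 4 of 4 and 2 of 4, with medians of -0.12, 0.12 and 0.14. The oligodendrocyte markers, with the highest median, had sums of 750.3 to 1652 CPM in transgenic vehicle libraries and 719 to 1592 CPM in wild type libraries. The part of these markers in the result was not tested.

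The Vorinostat comparison asks whether the drug changes the family in transgenic mice. It shares its transgenic vehicle libraries with the genotype comparison, so opposite signs in the pair of comparisons are not independent. All 6 seed carriers had a lower fitted level with Vorinostat, and none passed the test. Their median log2 difference was -0.31, against -0.01 over all 605 miRNAs tested. miR-15a-5p averaged 4.33 ± 3.47 CPM with Vorinostat and 8.74 ± 7.93 CPM with vehicle (SD, n = 10 and 7), a log2 difference of -0.97 ± 0.54 (SE). Leaving out 1 library at a time gave -1.25 without Vorinostat replicate 5 to -0.51 without transgenic vehicle replicate 5. Its adjusted p was 0.836 in edgeR's test over all miRNAs, and 8 of the 10 Vorinostat libraries lay below the vehicle mean. miR-16-5p averaged 315 ± 176 CPM with Vorinostat and 444 ± 243 CPM with vehicle (SD), a log2 difference of -0.50 ± 0.49 (SE, edgeR adjusted p = 0.836), which was -0.29 without transgenic vehicle replicate 6.

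The members of the miR-497 and miR-195a cluster had log2 differences of -0.33 ± 0.38 and -0.29 ± 0.33 (SE), miR-15b-5p of -0.28 ± 0.41 and miR-322-5p of -0.05 ± 0.31. miR-15b-3p stood at -0.05 ± 0.41. Adjusted p-values of the 7 ran between 0.836 and 0.975 by edgeR, and the groups overlapped for each. Again 0 of 605 miRNAs passed (0% called), with 21 at an unadjusted p under 0.05 and 0 called by DESeq2 or limma voom. Without the 2 libraries that stood apart the 6 seed carriers remained negative with a median of -0.22, and miR-16-5p stood at -0.38 ± 0.36 (SE). Within lane L001 the median was -0.32 with 6 of 6 negative. Within lane L002 it was -0.42 with 4 of 6 negative, miR-15b-5p and miR-322-5p being the exceptions. The marker medians were -0.10 for neurons, -0.49 for oligodendrocytes, 0.01 for microglia and leukocytes, 0.19 for erythrocytes, 0.02 for vessels, 0.05 for choroid plexus and -0.06 for heart and muscle, with 0 called.

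Transgenic libraries with the same replicate number deviated together in 7 of 7 pairs, although the same-numbered library was the closest partner in 3 of 7. On that basis the 7 numbered pairs were also compared as pairs, a fit chosen after seeing the data. Then 5 of 605 miRNAs passed, namely miR-129-5p, miR-182-5p, miR-379-5p, miR-339-5p and miR-29c-3p, named here because they passed and not by the rule for named miRNAs. None is a member. miR-497a-5p had a log2 difference of -0.71 ± 0.23 (SE) in that fit with an edgeR adjusted p of 0.0788, and it was lower with Vorinostat in 6 of 7 pairs. miR-16-5p stood at -0.64 ± 0.22 (SE, edgeR adjusted p = 0.109) and was lower in 5 of 7 pairs. miR-15a-5p stood at -0.83 ± 0.30 (SE, edgeR adjusted p = 0.122) and was lower in 6 of 7 pairs. miR-322-5p was lower in 3 of 7 pairs, with a difference of 0.06 ± 0.30 (SE). Without the pair of replicate 8, 0 of 605 miRNAs passed by edgeR, with a lowest adjusted p of 0.0719 and 130 at an unadjusted p under 0.05, against 150 over the 7 pairs. miR-16-5p then stood at -0.42 ± 0.17, miR-497a-5p at -0.54 ± 0.18, miR-15a-5p at -0.85 ± 0.32 and miR-322-5p at -0.05 ± 0.30 (SE).

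Vorinostat-treated transgenic libraries were last set against wild type libraries on vehicle, which shows how far the treated mice lay from untreated littermates. The family did not separate these groups in one direction: 2 seed carriers had a higher and 4 a lower fitted level with Vorinostat. The median was -0.07, against 0.01 over all 605 miRNAs. miR-15a-5p averaged 4.33 ± 3.47 CPM with Vorinostat and 5.29 ± 4.32 CPM in wild type libraries (SD, n = 10 and 9), a log2 difference of -0.37 ± 0.52 (SE). miR-322-5p averaged 1.39 ± 0.335 CPM with Vorinostat and 1.03 ± 0.685 CPM in wild type libraries (SD), a log2 difference of 0.26 ± 0.30 (SE). For it 9 of 10 Vorinostat libraries lay above the wild type median, on 5 to 26 reads per Vorinostat library. Among the other seed carriers that count ran from 2 of 10 for miR-16-5p to 6 of 10 for miR-15b-5p. miR-16-5p stood at -0.09 ± 0.46 (SE). The edgeR adjusted p was 0.9997 for each of the 7, and 0 of 605 miRNAs passed (0% called), with 19 at an unadjusted p under 0.05 and 0 by DESeq2 or limma voom. Without the 2 libraries that stood apart 5 of the 6 were negative, with a median of -0.11. Marker medians lay between 0.03 for neurons and 0.25 for choroid plexus, with 0 called.

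**Figure D3:**
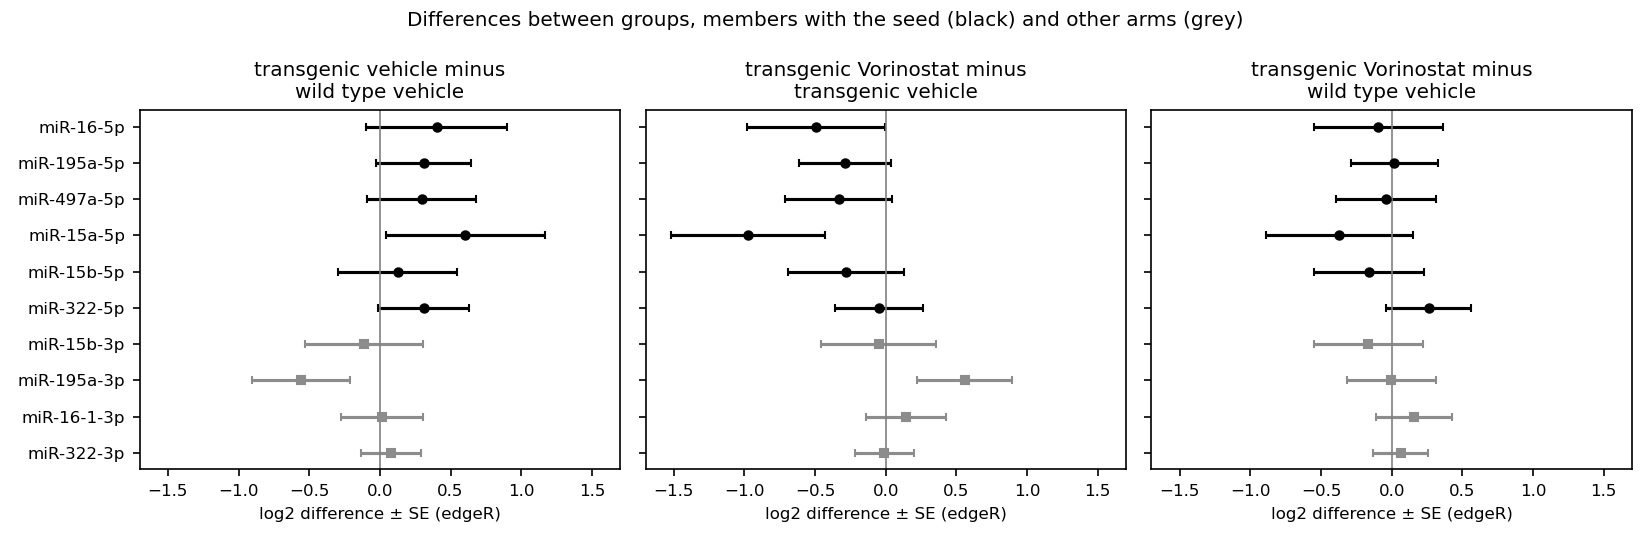
Log2 differences with their standard errors from the edgeR fit to all 26 libraries, for transgenic vehicle minus wild type vehicle, transgenic Vorinostat minus transgenic vehicle, and transgenic Vorinostat minus wild type vehicle. The 6 seed carriers (black) lie right of 0 in the left panel and left of 0 in the middle one, and miR-195a-3p (grey) lies on the opposite side in both, at -0.56 and 0.56; without wild type replicate 1 the first of these is -0.19.

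Ratios within a library do not depend on its total, so the balance between members was compared as ratios of counts with 0.5 added. miR-15b-5p exceeded miR-15b-3p by a median of 2.87-fold with Vorinostat, 3.18-fold in transgenic vehicle libraries and 2.94-fold in wild type libraries. miR-195a-5p exceeded miR-497a-5p, from the same transcript, by a median of 4.82-fold with Vorinostat, 5.70-fold in transgenic vehicle libraries and 5.41-fold in wild type libraries. miR-16-5p exceeded miR-15b-5p by a median of 128-fold over all libraries. Of 9 tests, 3 ratios in 3 comparisons, none passed. The mean log2 ratio of miR-16-5p to miR-15b-5p was 7.07 ± 0.52 in transgenic vehicle libraries and 6.40 ± 1.62 in wild type libraries (SD), a difference of 0.67 with an exact permutation p of 0.316, two-sided, and an adjusted p of 0.712 over the 9 tests. Wild type replicate 1 had 2 reads of miR-16-5p and 0 of miR-15b-5p, so its ratio is set by the 0.5 added. The difference was 0.16 without the 2 libraries that stood apart. The mean log2 ratio of miR-195a-5p to miR-497a-5p was 2.66 ± 0.67 with Vorinostat and 2.43 ± 0.24 in transgenic vehicle libraries (SD), a difference of 0.23 with an exact permutation p of 0.397, and of 0.11 without those 2 libraries. Adjusted p-values of the 9 tests ran between 0.712 and 0.768, and without the 2 libraries each was 0.995.

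Each hairpin gives a 5p and a 3p arm, and the arms of one precursor did not keep a fixed ratio. The hairpins of Mir195a and Mir322 are shown with both mature arms in capitals, as one hairpin whose leading arm varied between libraries and one whose 3p arm led. They are RefSeq sequences on GRCm38.p6, from chr11:70235042-70235135 on the plus strand and chrX:53054255-53054349 on the minus strand.
Mir195a: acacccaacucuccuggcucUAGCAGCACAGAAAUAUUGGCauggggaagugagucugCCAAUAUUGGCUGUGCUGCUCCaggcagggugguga
Mir322: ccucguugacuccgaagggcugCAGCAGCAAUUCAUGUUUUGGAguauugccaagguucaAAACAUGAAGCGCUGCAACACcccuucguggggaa
miR-322-3p outnumbered miR-322-5p in 26 of 26 libraries, with medians of 13.1 CPM of the 3p arm with Vorinostat, 14.9 CPM in transgenic vehicle libraries and 13.3 CPM in wild type libraries. The arm without the seed was thus the more often read product of the Mir322 hairpin in these libraries. How well each arm is captured was not measured. For Mir16-1, miR-16-5p outnumbered miR-16-1-3p in 25 of 26 libraries, although part of the 5p reads comes from Mir16-2. miR-15a-3p, miR-16-2-3p and miR-497a-3p were scarce, with 63, 36 and 4 reads in all libraries together, and were not tested.

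Neither arm of Mir195a led in all libraries. miR-195a-5p outnumbered miR-195a-3p in 15 libraries, the 3p arm led in 10, and the counts were equal in 1. The 5p arm led in most libraries of lane L001 and the 3p arm in most of lane L002. Leaving out wild type replicate 1, the ratio of 5p to 3p ran between 0.56 and 4.22 in lane L001. In lane L002 it ran between 0.31 and 3.53. miR-195a-3p ranged over 31.5, 54.2 and 91.3 CPM with Vorinostat, over 22.2, 43.7 and 53.1 CPM in transgenic vehicle libraries and over 28.2, 39.5 and 189 CPM in wild type libraries. Its highest library was wild type replicate 1, where miR-195a-5p had 6.24 CPM, and its next highest was Vorinostat replicate 8, where miR-195a-5p had 27.98 CPM. The pair of libraries lowest in miR-16-5p were thus the highest in miR-195a-3p. The log2 difference of miR-195a-3p was -0.56 ± 0.35 (SE) between transgenic and wild type vehicle libraries and 0.56 ± 0.34 with Vorinostat against transgenic vehicle, with edgeR adjusted p-values of 0.980 and 0.836. The first difference rests on wild type replicate 1, since it was -0.19 ± 0.26 (SE) without it, and without both libraries that stood apart the pair of differences was -0.19 ± 0.25 and 0.45 ± 0.25.

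**Figure D4:**
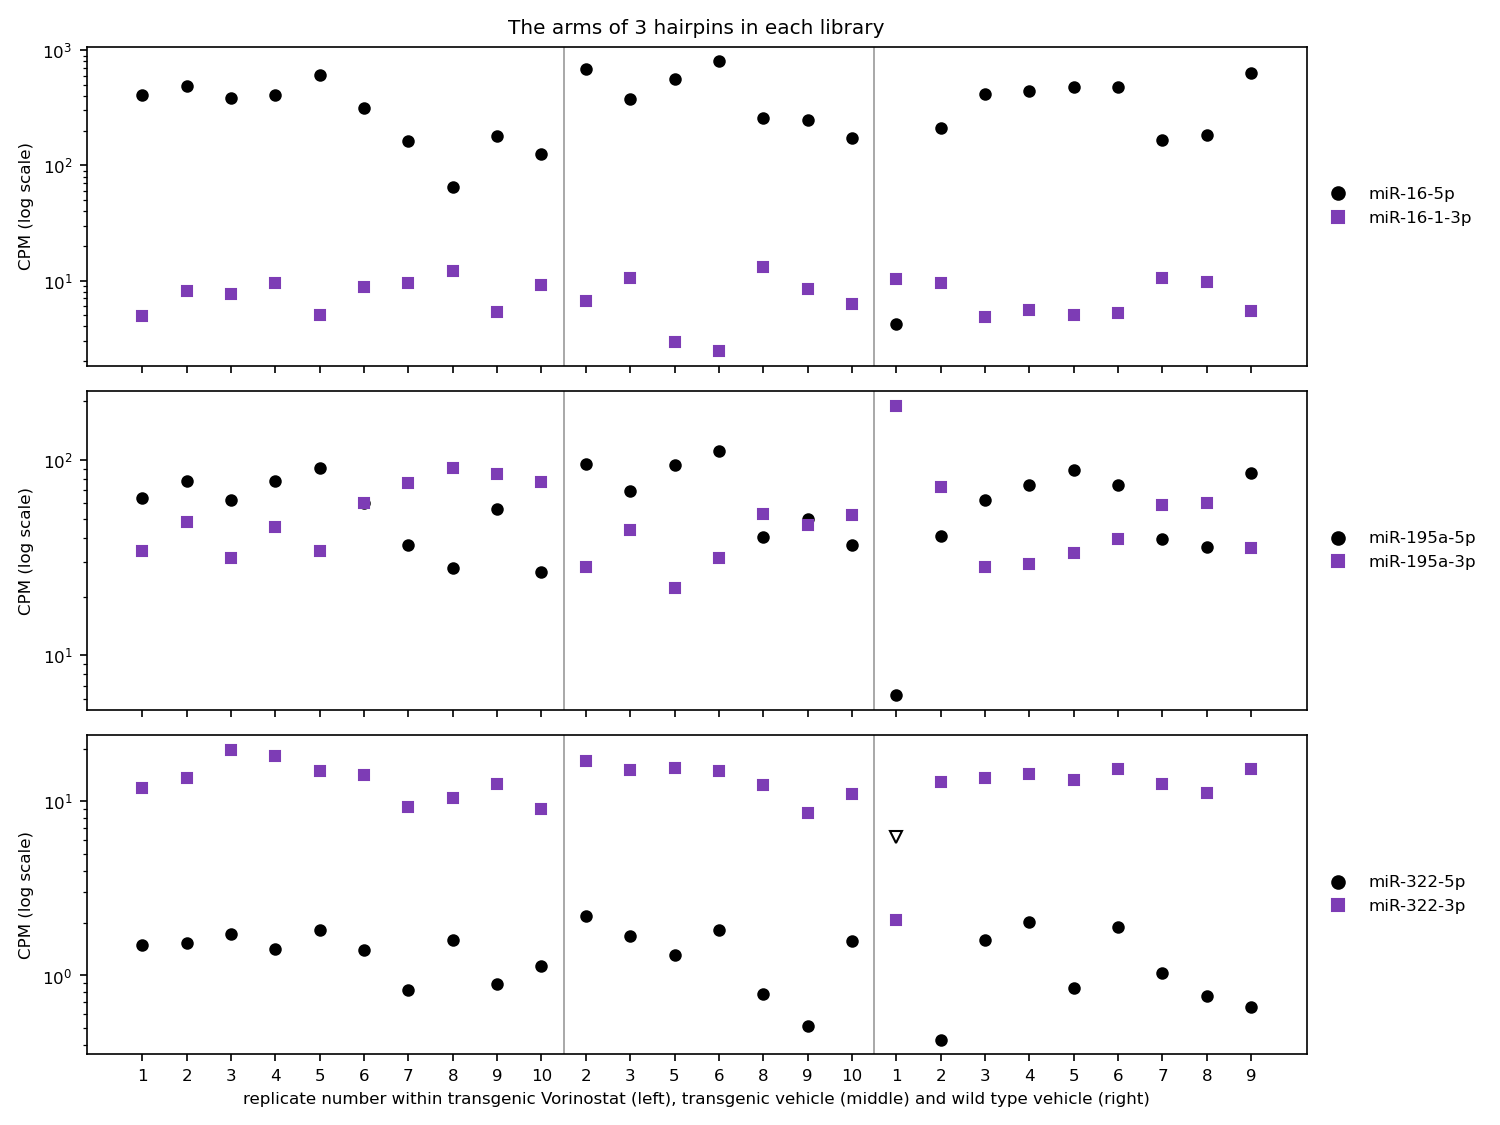
CPM (log scale) of the 5p and 3p arms of Mir16-1, Mir195a and Mir322 in each library, with transgenic Vorinostat on the left, transgenic vehicle in the middle and wild type vehicle on the right; an open triangle marks 0 counts at the level of 3 counts. miR-195a-3p reaches 189 CPM in wild type replicate 1, where miR-195a-5p stands at 6.24 CPM, and miR-322-3p is above miR-322-5p in all 26 libraries by count.

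The neighbours of miR-322 on the X chromosome varied little between groups. Of 11 listed arms of the cluster, 5 were tested and 0 passed in any comparison. miR-450a-5p averaged 14.2 CPM with Vorinostat, 13.6 CPM in transgenic vehicle libraries and 13.5 CPM in wild type libraries, and miR-351-5p 12.03, 13.4 and 12.6 CPM in the same groups. The median of the 5 was 0.04 for genotype, 0.03 for Vorinostat against transgenic vehicle and -0.01 for Vorinostat against wild type. These medians were -0.02, 0.05 and -0.07 without the 2 libraries that stood apart. miR-503-5p, whose seed differs from the family's at its last base, had log2 differences of 0.04 ± 0.35, -0.24 ± 0.34 and -0.21 ± 0.32 (SE) in those comparisons.

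The related pair miR-103-3p and miR-107-3p, whose seed holds the same run of letters shifted by 1 base, is processed from introns of the Pank genes. miR-103-3p averaged 2488 ± 874 CPM with Vorinostat, 3011 ± 808 CPM in transgenic vehicle libraries and 2392 ± 986 CPM in wild type libraries (SD). Its log2 differences were 0.33 ± 0.28 for genotype and -0.27 ± 0.27 for Vorinostat against transgenic vehicle (SE). miR-107-3p averaged 176 ± 93.7 CPM with Vorinostat, 240 ± 102 CPM in transgenic vehicle libraries and 194 ± 114 CPM in wild type libraries (SD). Its differences were 0.30 ± 0.41 and -0.44 ± 0.40 in the same comparisons (SE). Over the 24 other libraries miR-103-3p stood at 0.18 ± 0.21 and -0.21 ± 0.21, and miR-107-3p at 0.13 ± 0.35 and -0.34 ± 0.34 (SE). Neither passed in either case.

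The seed carriers went up and down together from library to library. After the group means were taken out, miR-16-5p and miR-195a-5p had a Spearman rho of 0.97 and a Pearson r of 0.97 over 26 libraries. Both permutation p-values were 1e-05, the smallest that 100000 permutations can give, and the adjusted p over 21 pairs was 2.63e-05 for rho and 2.33e-05 for r. Over the 24 libraries without the pair that stood apart they were 0.95 and 0.96. The 15 pairs of seed carriers had rho between 0.50 and 0.97, and between 0.48 and 0.95 over 24 libraries, with adjusted p-values of rho up to 0.0124. The lowest of them was miR-497a-5p with miR-322-5p. Pairs with miR-15b-3p had rho between 0.37 and 0.54, and between 0.25 and 0.49 over 24 libraries. The miRNAs share libraries and scaling, so these values describe the libraries.

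Outside the family, the patterns closest to each member belonged to miRNAs of many kinds. The nearest to miR-16-5p was miR-23a-3p (rho 0.97 over 26 libraries and 0.90 over 24), followed by miR-195a-5p and miR-150-5p (0.96 and 0.88). The nearest to miR-195a-5p were miR-16-5p, the neuronal miR-124-3p (0.95 and 0.90) and miR-23a-3p (0.94 and 0.85). miR-15a-5p lay closest to miR-384-5p (0.94 and 0.94), miR-124-3p (0.92 and 0.92) and miR-361-5p (0.92 and 0.96). miR-15b-5p lay closest to miR-17-5p (0.90 and 0.76), miR-93-5p (0.89 and 0.82) and miR-137-3p (0.89 and 0.77). miR-497a-5p lay closest to miR-140-5p (0.94 and 0.87), miR-194-5p (0.91 and 0.83) and miR-340-5p (0.90 and 0.80). The values were lower for miR-322-5p, with miR-144-5p (0.71 and 0.61), miR-377-5p (0.69 and 0.77) and miR-370-5p (0.68 and 0.68). miR-15b-3p lay closest to miR-3068-5p (0.80 and 0.68), miR-362-3p (0.72 and 0.64) and let-7c-2-3p (0.71 and 0.64).

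The levels of the seed carriers went with the GC share of the library's miRNA counts. So did those of the examined arms without the seed, some falling and some rising. For each library, the mean GC content of the other tested miRNAs was taken, weighted by their counts, over the 508 of 598 with a RefSeq sequence. With this weighting the most abundant miRNAs count most, so the share describes the mix of miRNAs counted. It comes from the same libraries and counts as the levels set against it. This share was 43.3% to 45.7% with Vorinostat, 42.9% to 44.4% in transgenic vehicle libraries and 43.0% to 47.3% in wild type libraries, with wild type replicate 1 and Vorinostat replicate 8 the highest of all. The relation was examined after seeing the data. miR-16-5p was lower where the share was higher, with r of -0.93 and rho of -0.90 over 26 libraries. Each had a permutation p of 1e-05, the smallest 100000 permutations can give, and adjusted p-values over 10 miRNAs were 1.43e-05 and 1.67e-05. Without the 2 libraries farthest from the median, r was -0.91, and within lanes L001 and L002 it was -0.97 and -0.93. Lane L001 holds wild type replicate 1, and rho of miR-16-5p was weaker there, at -0.66 against -0.92 within lane L002. Over the 6 seed carriers rho within lane L001 ran between -0.81 for miR-15b-5p and -0.21 for miR-497a-5p. For the 5 seed carriers besides miR-16-5p r ran between -0.94 for miR-15b-5p and -0.72 for miR-322-5p, and without the 2 farthest libraries between -0.89 and -0.60. For miR-322-5p it was -0.15 within lane L002. The lanes themselves differed: miR-16-5p had medians of 412 CPM in lane L001 and 170.3 CPM in lane L002 with Vorinostat, 563 and 252 CPM in transgenic vehicle libraries and 431 and 184 CPM in wild type libraries. Lane L001 held 4 Vorinostat, 3 transgenic vehicle and 6 wild type libraries, and lane L002 held 6, 4 and 3. miR-195a-3p ran the other way, with r of 0.94, 0.90 without the 2 farthest libraries, and 0.94 and 0.93 within the lanes.

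With the GC share as a covariate, again chosen after seeing the data, the signs of the Vorinostat comparison did not hold. miR-16-5p then stood at 0.10 ± 0.20 (SE), miR-195a-5p at 0.13 ± 0.17 and miR-15b-5p at 0.27 ± 0.22 with Vorinostat against transgenic vehicle, and 5 of the 6 seed carriers were positive. miR-15a-5p stayed negative at -0.18 ± 0.35. For genotype 5 of the 6 remained positive, with a median of 0.10. None passed in either comparison. Mean GC shares were 44.3% ± 0.981 with Vorinostat, 43.6% ± 0.665 in transgenic vehicle libraries and 44.2% ± 1.37 in wild type libraries (SD). In each group the spread of the share was larger than the differences between these means. Beyond the fit with the covariate, its part in the result was not tested.

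**Figure D5:**
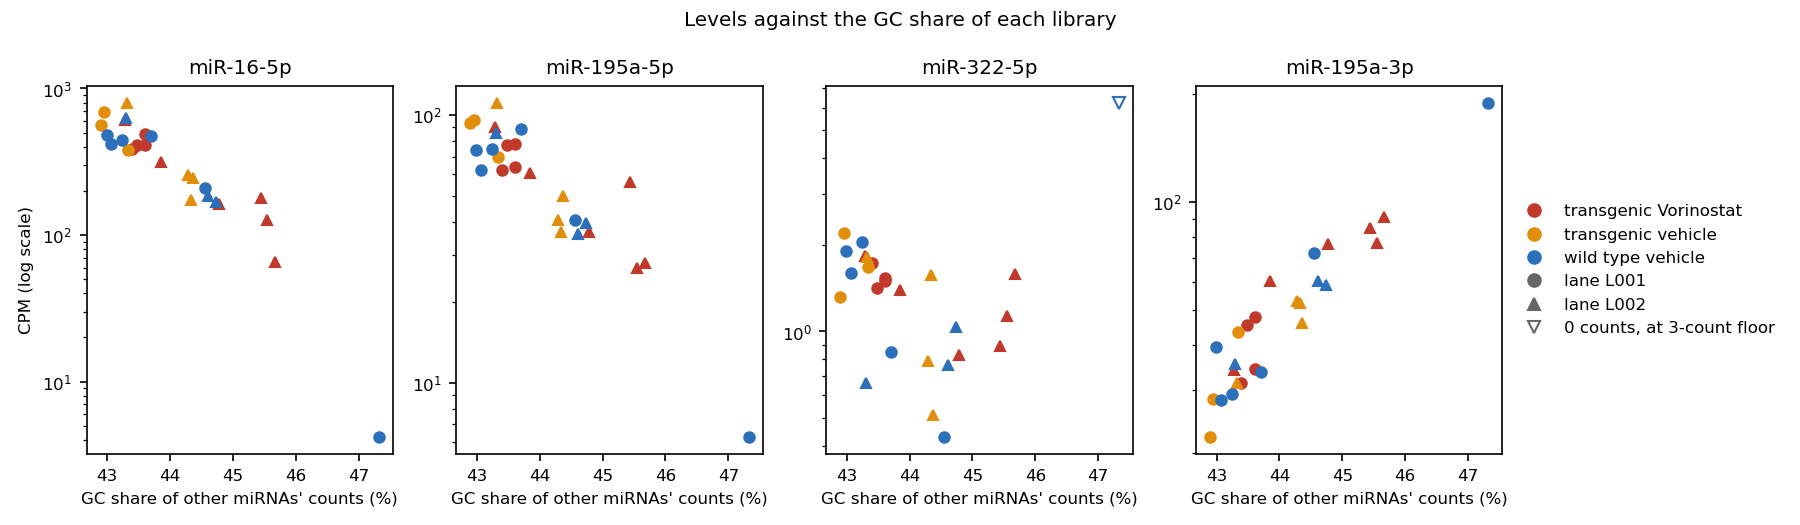
CPM (log scale) of miR-16-5p, miR-195a-5p, miR-322-5p and miR-195a-3p against the count-weighted GC share (%) of the other tested miRNAs, 1 point per library, coloured by group and shaped by lane. miR-16-5p and miR-195a-5p are lower at higher GC shares (r of -0.93 and -0.91 on log2 CPM), and miR-195a-3p is higher (r of 0.94).

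Since miR-16 and miR-15 are abundant in red blood cells, the seed carriers were set against the summed level of the erythrocyte miRNAs miR-451a, miR-486a-5p, miR-144-3p and miR-144-5p. That sum ranged over 585, 681 and 1236 CPM with Vorinostat, over 564, 654 and 882 CPM in transgenic vehicle libraries and over 518, 653 and 2033 CPM in wild type libraries. For miR-16-5p r was -0.62 with a permutation p of 0.0126 and an adjusted p of 0.0353 over 6 members, while rho was -0.07 with a p of 0.745 and an adjusted p of 0.894. Without the 2 libraries farthest from the median r was -0.27, within lane L001 it was -0.93, within lane L002 it was 0.20, and without the 2 libraries that stood apart it was 0.24. Over the 6 members r ran between -0.72 and -0.37 and rho between -0.28 and -0.01, and 5 of the 6 adjusted p-values of r but none of rho were under 0.05. Wild type replicate 1, the lowest library in the family, was the highest in erythrocyte miRNAs. The negative r rests on the libraries that stood apart, since without them it was positive for 5 members and -0.03 for miR-497a-5p.

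The deposited tables of normalized values and co-expression modules also hold all 7 members. In the authors' deposited table each of the 7 was assigned to the turquoise module, which holds 404 of 674 miRNAs, with memberships between 0.63 for miR-322-5p and 0.99 for miR-16-5p on a scale that ends at 1. The authors' normalized log2 values separated the groups far more than the counts did. miR-16-5p ranged over 9.01, 10.73 and 11.21 with Vorinostat and over 11.90, 12.55 and 13.43 in transgenic vehicle libraries. In wild type libraries it ranged over 6.05, 10.98 and 11.85, so no transgenic vehicle library overlapped the other groups. miR-195a-5p separated likewise, with a lowest transgenic vehicle value of 8.62 against highest values of 8.35 with Vorinostat and 8.46 in wild type libraries. For the remaining members the transgenic vehicle range overlapped that of another group. How many of all 674 miRNAs separated in this way is not given here. On the CPM scale these groups overlapped, and the Spearman rho between both scales for miR-16-5p over 26 libraries was 0.37, and 0.47 to 0.78 for the other members.

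Tested with limma on the authors' normalized values, 366 of 674 miRNAs passed for genotype, 360 for Vorinostat against transgenic vehicle and 6 for Vorinostat against wild type. Among the seed carriers 5 of 6 passed in each of the first pair of comparisons, all but miR-322-5p, and 0 in the last. miR-15b-3p passed for genotype alone, with a log2 difference of 0.45 ± 0.16 (SE), where the counts gave -0.11. miR-16-5p had a log2 difference of 2.11 ± 0.54 (SE) for genotype and of -2.13 ± 0.53 for Vorinostat against transgenic vehicle. The median over all miRNAs was 0.19 and -0.24 in these comparisons, against 1.35 and -1.33 over the 6 seed carriers. The labels do not state how the table was made or whether the groups entered its normalization, so these calls cannot be taken as independent of the group labels. Why it differs from the counts was not tested.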

How the data were processed

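Small RNA was sequenced from CA1 in 26 libraries, and the labels of genotype and agent gave the 3 groups. Per the labels' protocols, TruSeq Small RNA libraries were read as single reads of 50 bp on a HiSeq2000. Build mm10 and FastQC 0.11.5 come from the submitters' processing notes. The labels state no aligner, counter or miRNA annotation. The counts per mature miRNA are raw, as deposited, and all per-library columns were mapped to a sample. They also deposited normalized values of 674 miRNAs on a log2 scale, by a method that the labels do not state. A further table holds, per the file headers, a module membership score of each miRNA and p-values of membership, the latter not used.

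Counts were tested with edgeR 4.0.16 in R 4.3.3, with a quasi-likelihood fit to all 3 groups and no covariate, TMM factors and filterByExpr (minimum count 10, minimum total 15), which left 605 of 1915 entries. Adjusted p-values (Benjamini-Hochberg over all 605) under 0.05 passed, two-sided. CPM are counts per TMM-scaled library on a scale of 1e6, and log2 CPM used a prior count of 2. Library totals were 585188 to 24767468 counts. A level of 3 counts was taken as the floor of a library at 0, which covers counting error only. Ratios were compared by exact permutation tests, and relations between libraries by 100000 permutations (scipy 1.17.1). DESeq2 1.42.0 and limma 3.58.1 were alternatives, besides other scalings, no filter, lane, replicate number, single libraries left out and the GC share. The scripts were tested on simulated data.

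The members and lists were chosen with earlier results of these data known. Named miRNAs are the members, other miRNAs with the seed, the other arms of the members' hairpins, the X chromosome neighbours of miR-322, miR-103-3p and miR-107-3p, listed cell type markers, and for each member the 3 miRNAs with the highest Spearman rho of log2 CPM without group means. Of lists, only counts, medians and the most abundant pair are named.

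Replicate numbers were checked for pairing. Deviations of same-numbered Vorinostat and transgenic vehicle libraries correlated in 7 of 7 pairs (rho 0.26 to 0.62), with the namesake the best partner in 3 of 7. Vorinostat replicates 8, 9 and 10 all had transgenic vehicle replicate 9 as best partner. The labels do not say what a number marks, and all pairs but replicate 5 share a lane. A true pairing is thus not established, so the main test was unpaired and the paired fit was an alternative.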

Additional observations from a re-analysis of the deposited data

Results flagged for a closer look

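Of 39 sets of library values examined, 8 held a library far from the others of its group, and chance marks about 1 in 20 such sets. Of these, 7 were wild type replicate 1, the library with 585188 counts. On the log2 CPM scale it stood at -2.57 for miR-15b-5p, 2.11 for miR-16-5p, 2.68 for miR-195a-5p and -2.57 for miR-497a-5p, each below the other 8 wild type libraries. Its log2 ratio of miR-16-5p to miR-15b-5p was 2.32, that of miR-195a-5p to miR-195a-3p was -4.71 and that of miR-16-5p to miR-16-1-3p was -1.14. These values rest on 0 to 3 reads of each 5p member, while miR-195a-3p had 91 reads there. The remaining set was the log2 ratio of miR-15b-5p to miR-15b-3p, at 3.56 in transgenic vehicle replicate 6, above the other 6 libraries of its group, with 29 reads of the 5p arm and 2 of the 3p arm.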

How the results depend on the processing

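All log2 differences below belong to results that passed no test on the counts. The count of miRNAs called stayed at 0 in all 3 comparisons under other scalings, no filter, DESeq2, limma voom, the replicate block over all groups, lane, either lane alone, the GC share, the exclusion of either or both libraries that stood apart, and each of 26 single exclusions. It moved to 366, 360 and 6 with limma on the authors' normalized values, and to 5 for Vorinostat with the replicate block over 7 pairs, but stayed at 0 over 6 of these pairs, without replicate 8. The replicate block over all groups called no member. Numbers shared between wild type and transgenic libraries were not taken as pairs. Of these, 4 of 6 transgenic vehicle and 6 of 9 Vorinostat libraries correlated with their wild type namesake above 0.1. The lowest rho was -0.56 and -0.57, and the namesake was the best partner in 0 of 6 and 4 of 9.

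For genotype the sign turned for miR-15a-5p (-0.060) and miR-15b-5p (-0.45) in lane L002 alone, for miR-15b-5p with the GC share (-0.12), and for miR-15b-3p in lane L001 alone (0.32) and on the authors' values (0.45). For Vorinostat against transgenic vehicle it turned in lane L002 alone for miR-15b-5p (0.084), miR-322-5p (0.12) and miR-15b-3p (0.84), and with the GC share for miR-15b-5p (0.27), miR-16-5p (0.10), miR-195a-5p (0.13), miR-497a-5p (0.070), miR-322-5p (0.22) and miR-15b-3p (0.26). It also turned for miR-322-5p with limma voom (0.0077) and over the 7 pairs (0.057), and for miR-15b-3p with the replicate block (0.025) and with lane as a covariate (0.077). For Vorinostat against wild type it turned with the GC share for miR-15a-5p (0.082), miR-15b-5p (0.15), miR-16-5p (0.21) and miR-497a-5p (0.14), and in lane L001 alone for miR-15b-5p (0.055), miR-16-5p (0.29) and miR-497a-5p (0.33). There it turned for miR-16-5p also with limma voom (0.11) and the replicate block (0.0060), for miR-497a-5p with lane as a covariate (0.069), and for miR-15b-3p in lane L002 alone (0.086) and on the authors' values (0.13). miR-195a-5p, at 0.02 there, turned with DESeq2's size factors (-0.038), library totals (-0.081), no filter (-0.0036), DESeq2 (-0.034), lane L002 alone (-0.14) and without both libraries that stood apart (-0.069). Library totals shifted the median of all miRNAs to -0.14 for Vorinostat.

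Among ratios the sign turned in lane L001 alone for miR-15b-5p to miR-15b-3p (0.22) and miR-16-5p to miR-15b-5p (0.19) with Vorinostat, and for miR-195a-5p to miR-497a-5p for genotype (0.037), Vorinostat (-0.26) and Vorinostat against wild type (-0.22). It turned in lane L002 alone for miR-15b-5p to miR-15b-3p for genotype (-0.020) and Vorinostat against wild type (-0.77), and with 2 counts added for miR-195a-5p to miR-497a-5p for genotype (0.10). Pearson's r with erythrocyte miRNAs turned positive without both libraries that stood apart for miR-15a-5p (0.32), miR-15b-5p (0.22), miR-16-5p (0.24), miR-195a-5p (0.27) and miR-322-5p (0.091), and in lane L002 alone for the same 5 (0.42, 0.27, 0.20, 0.39 and 0.66).

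Leaving out single libraries moved all 6 values of the seed carriers for genotype, and all 6 for Vorinostat against transgenic vehicle, by over 1.5 times. For genotype the lowest values were 0.14 for miR-15a-5p and -0.060 for miR-15b-5p without transgenic vehicle replicate 5, 0.20 for miR-16-5p and 0.13 for miR-497a-5p without that group's replicate 6, 0.16 for miR-322-5p without that group's replicate 2, and 0.15 for miR-195a-5p without wild type replicate 1. For Vorinostat the values nearest 0 were -0.51 for miR-15a-5p and -0.098 for miR-15b-5p without transgenic vehicle replicate 5, and -0.29 for miR-16-5p, -0.15 for miR-195a-5p and -0.16 for miR-497a-5p without that group's replicate 6. It turned 7 values. miR-15b-3p ran between -0.27 and 0.28 for Vorinostat and between -0.45 and 0.010 for genotype, miR-15b-5p between -0.060 and 0.27 for genotype, and miR-322-5p between -0.20 and 0.047 for Vorinostat. For Vorinostat against wild type miR-16-5p ran between -0.29 and 0.075, miR-195a-5p between -0.15 and 0.12 and miR-497a-5p between -0.17 and 0.070. The cause was not tested for any of these. Depth limits the scarce members most, since miR-322-5p and miR-15b-3p had medians of 6.5 to 14.5 reads per library in each group.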
